A study of Mus musculus with 4 samples.

Results

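Antigen that B cells take up is cut and unfolded in lysosomes before MHC class II presents it, and 10 genes of this step were followed here in splenic B cells with and without NSD1. They are 6 cathepsins (*Ctss*, *Ctsb*, *Ctsd*, *Ctsh*, *Ctsz* and *Ctsa*), the asparagine-specific protease *Lgmn*, the thiol reductase *Ifi30*, the protease inhibitor *Cst3* and the lysosomal membrane protein *Lamp1*. They were taken by gene symbol from the 55401 genes listed in the deposited counts. Each had at least 36 counts in each of the 4 libraries, and all 10 passed the filter on low counts.

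B220+ B cells of the spleen were sorted and their RNA sequenced, with 2 libraries from NSD1B WT mice (Mb1-Cre+ NSD1+/+) and 2 from NSD1B KO mice (Mb1-Cre+ NSD1fl/fl). Both genotypes carried Mb1-Cre, which acts in cells of the B lineage, so Cre itself was not compared. In the floxed allele exons 6 to 8 of *Nsd1*, the gene of a histone H3 lysine 36 methyltransferase, lie between loxP sites. Mice of the study were males and females of 7 to 9 weeks on the C57BL/6J background, with littermates as controls. Neither the sources nor the labels tell whether the 2 libraries of a genotype came from different mice or from pools, so p-values measure the spread between these libraries. Counts on genes were 6769118 to 7566834 in a library. The mitochondrial share was 7.14% and 7.90% in NSD1B WT and 8.98% and 9.27% in NSD1B KO, and 12856 and 13084 genes had a count in NSD1B WT against 12383 and 12521 in NSD1B KO. The part of these differences in the results was not tested. *Nsd1* had 497 and 480 counts in the NSD1B WT libraries and 284 and 280 in the NSD1B KO libraries, over the whole gene and not the floxed exons alone.

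Cathepsins are proteases of acidic compartments. Cathepsins S, B, H and Z are cysteine proteases, cathepsin D is an aspartic protease and cathepsin A a serine carboxypeptidase. In antigen-presenting cells they cut antigen and also the invariant chain, the product of *Cd74*, which blocks the groove of MHC class II until it is removed. Cathepsin S carries out the late cuts of the invariant chain in B cells. GILT, the product of *Ifi30*, opens disulfide bonds of antigen, and cystatin C, the product of *Cst3*, inhibits cysteine cathepsins.

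Of the 10 genes, 8 were lower in NSD1B KO, 2 were not past the threshold and 0 were higher. The threshold was an adjusted p below 0.05 with a fold change above 1.2, from edgeR's quasi-likelihood test on all 11657 genes that passed the filter. Over those genes 41.1% were lower and 37.1% higher, 78.2% in all. With a stricter threshold (adjusted p below 1e-05 and more than 0.5 on the log2 scale) 6 of the 10 genes were lower, beside 29.8% of all genes tested, and 0 were higher, beside 27.4%. The 8 genes that fell were *Ctsd*, *Ifi30*, *Ctsh*, *Ctsb*, *Lamp1*, *Lgmn*, *Ctsa* and *Ctsz*, and the decrease ran from 1.28-fold for *Ctsz* to 5.01-fold for *Ctsd*. *Ctss* and *Cst3*, which had the most counts of the 10, showed no detectable difference. The median log2 fold change was -0.67 over the 10 genes and -0.10 over all genes tested. In 9 of the 10 genes both NSD1B KO libraries lay below both NSD1B WT libraries, as they did in 46.2% of all genes tested, with the reverse order in 41.8%. In RNA from sorted cells as a whole, fewer cells of a kind and less RNA per cell cannot be told apart.

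**Figure D1:**
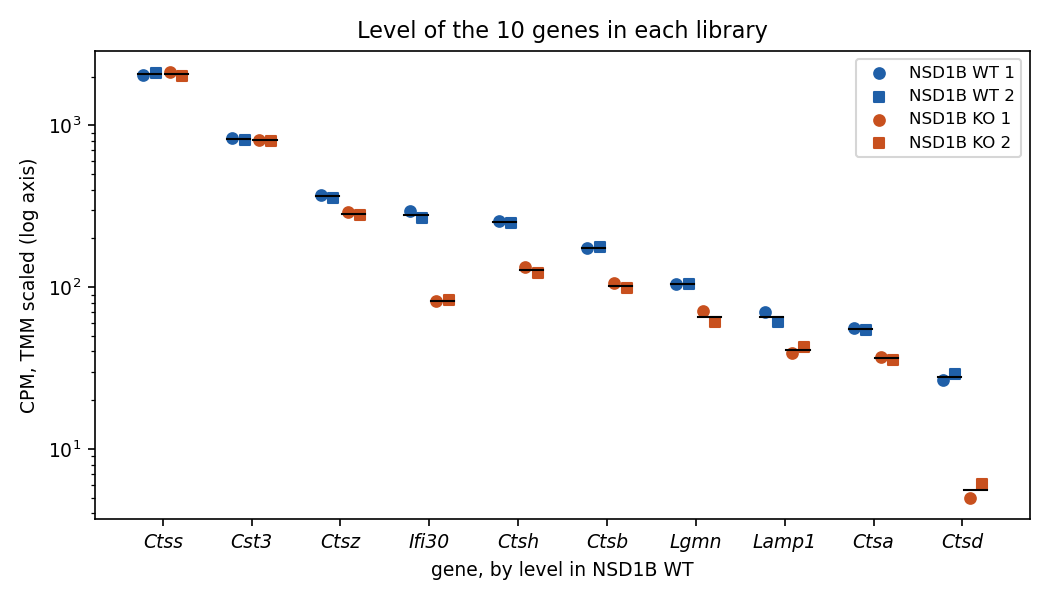
CPM (the count of a gene relative to the TMM-scaled size of its library, log axis) of the 10 genes in each of the 4 libraries, with black bars for the mean of a genotype. *Ctss* (2077 and 2078 CPM) and *Cst3* (823 and 806 CPM) lie level in both genotypes, and the other 8 genes lie lower in NSD1B KO.

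**Figure D2:**
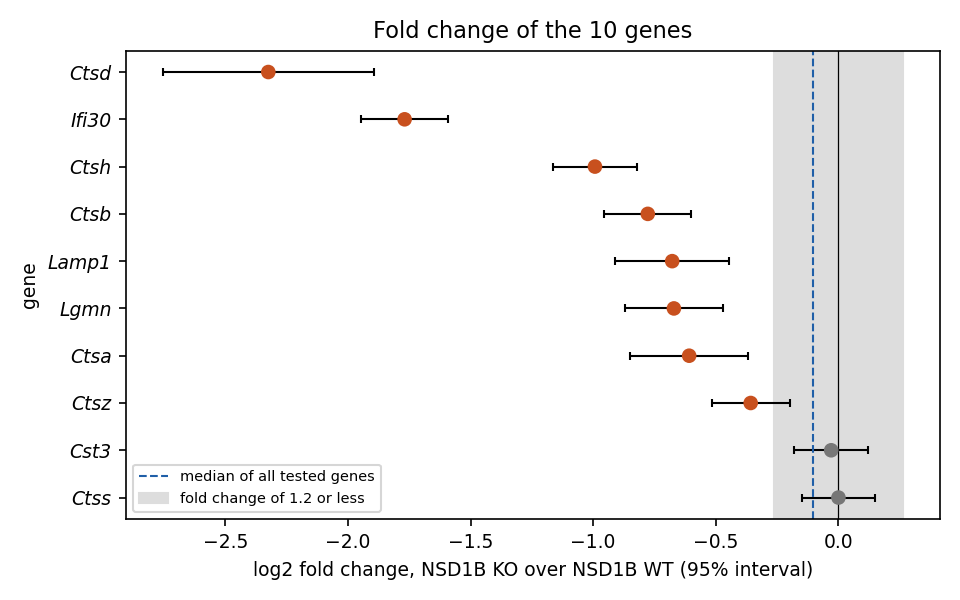
Log2 fold change of NSD1B KO over NSD1B WT for each of the 10 genes with its 95% interval; the grey band marks a fold change of 1.2 or less and the dashed line the median of all genes tested (-0.10). The points run from -2.33 for *Ctsd* to 0.00 for *Ctss*.

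The promoters of 7 of these genes are printed here because they differ in the letters CACGTG, the E-box that the lysosomal transcription factors TFEB and TFE3 are known to bind. Each window runs from 250 bases before to 50 bases after a start site of RefSeq (GRCm38.p6), 5′ to 3′ on the strand of the gene. Capitals mark CACGTG, which reads the same on both strands, and CCAAT or its reverse complement ATTGG. The first 5 belong to genes that fell, with *Ctsz* as the one without CACGTG, and the last pair to *Ctss* and *Cst3*. Their positions are chr7:142387778-142388077 (minus strand) for *Ctsd*, chr8:70766614-70766913 (minus) for *Ifi30*, chr8:13158911-13159210 (plus) for *Lamp1*, chr2:164833523-164833822 (plus) for the second window of *Ctsa*, chr2:174438990-174439289 (minus) for *Ctsz*, chr3:95526536-95526835 (plus) for *Ctss* and chr2:148875463-148875762 (minus) for *Cst3*.
Ctsd: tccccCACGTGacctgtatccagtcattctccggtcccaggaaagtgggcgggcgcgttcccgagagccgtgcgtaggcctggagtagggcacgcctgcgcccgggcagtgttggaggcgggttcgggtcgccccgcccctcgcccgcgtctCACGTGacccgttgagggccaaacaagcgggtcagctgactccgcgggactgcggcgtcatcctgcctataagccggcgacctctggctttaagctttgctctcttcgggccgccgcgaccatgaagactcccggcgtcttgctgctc
Ifi30: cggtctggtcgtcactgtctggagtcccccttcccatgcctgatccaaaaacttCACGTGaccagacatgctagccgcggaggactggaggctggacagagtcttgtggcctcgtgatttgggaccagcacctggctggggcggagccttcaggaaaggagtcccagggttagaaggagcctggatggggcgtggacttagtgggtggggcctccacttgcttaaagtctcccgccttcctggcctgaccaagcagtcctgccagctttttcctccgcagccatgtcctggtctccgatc
Lamp1: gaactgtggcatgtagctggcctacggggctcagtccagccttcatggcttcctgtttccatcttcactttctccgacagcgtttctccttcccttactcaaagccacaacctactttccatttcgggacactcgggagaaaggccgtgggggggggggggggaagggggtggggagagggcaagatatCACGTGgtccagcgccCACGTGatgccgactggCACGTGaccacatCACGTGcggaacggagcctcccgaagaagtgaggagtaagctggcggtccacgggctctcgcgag
Ctsa, second window: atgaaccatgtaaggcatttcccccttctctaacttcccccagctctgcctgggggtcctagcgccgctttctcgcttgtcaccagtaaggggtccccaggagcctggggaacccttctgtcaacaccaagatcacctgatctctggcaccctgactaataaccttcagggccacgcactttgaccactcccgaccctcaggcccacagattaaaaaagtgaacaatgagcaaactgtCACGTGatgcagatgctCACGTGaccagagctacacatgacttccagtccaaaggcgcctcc
Ctsz: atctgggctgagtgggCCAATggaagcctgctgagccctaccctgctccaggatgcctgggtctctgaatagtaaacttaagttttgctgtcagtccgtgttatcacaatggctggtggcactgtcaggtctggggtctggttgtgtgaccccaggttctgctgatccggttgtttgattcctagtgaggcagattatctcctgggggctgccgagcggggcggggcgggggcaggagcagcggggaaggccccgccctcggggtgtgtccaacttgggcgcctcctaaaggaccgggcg
Ctss: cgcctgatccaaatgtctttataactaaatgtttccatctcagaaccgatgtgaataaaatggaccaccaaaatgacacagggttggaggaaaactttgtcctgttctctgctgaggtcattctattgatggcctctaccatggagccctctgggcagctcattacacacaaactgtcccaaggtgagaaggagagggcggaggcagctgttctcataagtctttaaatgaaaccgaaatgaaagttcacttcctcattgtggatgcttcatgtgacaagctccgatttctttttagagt
Cst3: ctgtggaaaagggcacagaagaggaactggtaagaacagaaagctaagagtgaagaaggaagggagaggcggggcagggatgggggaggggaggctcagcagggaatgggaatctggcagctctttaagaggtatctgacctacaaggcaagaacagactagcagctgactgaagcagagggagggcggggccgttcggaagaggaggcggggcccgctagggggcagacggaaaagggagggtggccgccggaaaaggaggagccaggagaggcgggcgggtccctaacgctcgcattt

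Promoter windows were found for 8 of the 10 genes, 10 windows in all, and none was used for *Ctsb* and *Ctsh*. CACGTG stood in a window of *Ctsd*, *Ifi30*, *Lamp1*, *Ctsa* and *Lgmn*, which all fell. It stood in no window of *Ctss* and *Cst3*, which did not pass the threshold, and in none of *Ctsz*, which fell, so 1 of the 3 genes without the letters was lower. It stood 4 times before the start site of *Lamp1*, with first bases at -61, -45, -28 and -15, and 2 times in *Ctsd*, at -245 and -98. *Ifi30* held it at -196, *Lgmn* at -49 of its second window, and *Ctsa* at -12 and 6 of its second window. Counted by gene, the letters stood in a window of 12.4% of all tested genes with a window. The share was 29.7% in the 7 further lysosomal lists given below. Of 32851 single promoter windows of the same length, 7.15% held these letters.

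Over all genes the shares were alike with and without these letters. Of 987 tested genes with CACGTG in a window, 41.6% were lower and 39.9% higher in NSD1B KO, and of 6985 without it 41.6% and 39.7%. A match says only that the letters stand in the window.

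**Figure D3:**
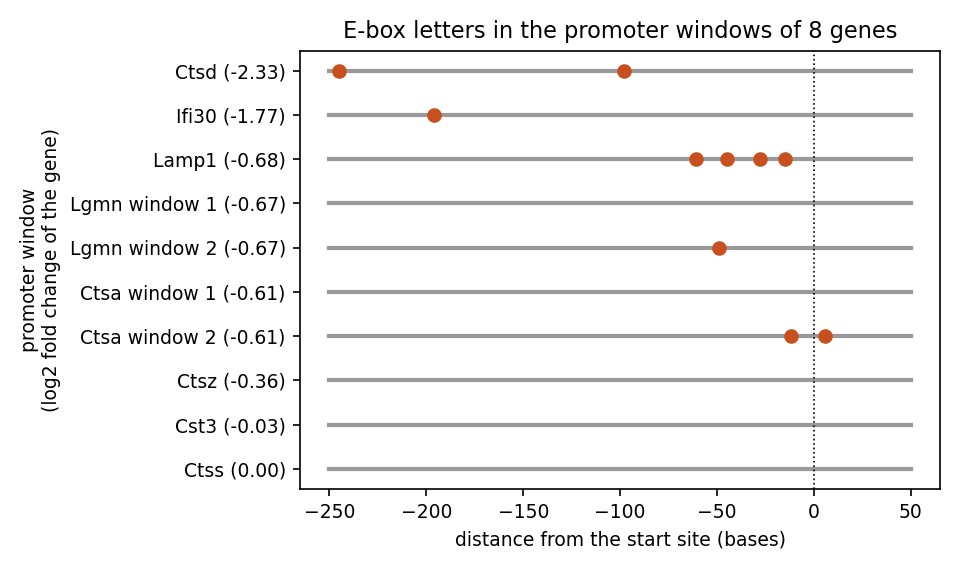
Position of CACGTG (points) in the promoter windows of 8 genes, as the distance of its first base from the start site in bases, with the log2 fold change of each gene in brackets. All 10 points belong to genes that fell, but the window of *Ctsz*, which fell too, holds none, and neither do those of *Cst3* and *Ctss*.

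Among the cysteine proteases, *Ctss* (ENSMUSG00000038642.10) did not differ detectably between the genotypes. It maps to chr3:95526786-95556403 on the plus strand (GRCm38, as all positions of genes here) and has 8 exons in its principal transcript. It had 14604 and 15430 counts in NSD1B WT and 15363 and 13597 in NSD1B KO. On the CPM scale this was 2077 ± 47.4 and 2078 ± 80.5 (mean ± SD, n = 2 libraries), and the libraries of the genotypes overlapped. The log2 fold change of *Ctss* was 0.00 (standard error, SE, 0.07, adjusted p = 0.995), and its 95% interval covers 90.1% to 111% of the level in NSD1B WT.

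*Ctsh*, an aminopeptidase as well as an endopeptidase, was lower in both NSD1B KO libraries. It had 1820 and 1833 counts in NSD1B WT and 951 and 819 in NSD1B KO, so the groups lay far apart. The level fell to 50.2% of that in NSD1B WT, from 253 ± 2.80 to 127 ± 7.37 CPM (mean ± SD, n = 2). For *Ctsh* the test gave a log2 fold change of -0.99 (SE 0.08, adjusted p = 7.23e-15). The gene (ENSMUSG00000032359.14) maps to chr9:90054152-90076089 on the plus strand.

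*Ctsb*, which cuts from the inside of a chain and from its carboxyl end, fell to 58.3% of its level in NSD1B WT. Its counts were 1239 and 1295 in NSD1B WT and 758 and 667 in NSD1B KO, or 175 ± 2.66 and 102 ± 4.38 CPM (mean ± SD, n = 2). On the log2 scale *Ctsb* changed by -0.78 (SE 0.09, adjusted p = 4.59e-11). The gene (ENSMUSG00000021939.8) maps to chr14:63122462-63145923 on the plus strand, and 774 bp of its exons are shared with *Fdft1* on the other strand. *Fdft1* had 0 and 0 counts in NSD1B WT and 8 and 2 in NSD1B KO, far fewer than *Ctsb*. The strand setting of the counting is not given in the sources used here.

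*Ctsz*, a carboxypeptidase, showed the smallest change of the 8 genes that fell. It had 2665 and 2610 counts in NSD1B WT and 2088 and 1881 in NSD1B KO, with no overlap. The mean level went from 365 ± 11.3 to 285 ± 7.47 CPM (SD, n = 2), and the log2 fold change of *Ctsz* was -0.36 (SE 0.08, adjusted p = 6.53e-05). With a trend of the fold change on exon length and GC content removed, its log2 fold change was -0.02 (adjusted p = 0.834), and the call was lost. The gene (ENSMUSG00000016256.10) maps to chr2:174427493-174439039 on the minus strand, and its transcripts have a GC content of 57.3%, the highest of the 10 genes.

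The 4 cysteine cathepsins together held 2845 and 2896 CPM in NSD1B WT and 2663 and 2522 CPM in NSD1B KO. Since *Ctss* kept its level while the others fell, its share of this sum went from 71.8% and 72.9% to 80.2% and 80.2%. For each count of *Ctss* there were 0.125 and 0.119 counts of *Ctsh* in NSD1B WT, against 0.0619 and 0.0602 in NSD1B KO.

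The largest change on the log2 scale was that of *Ctsd*, the aspartic protease. It had 191 and 211 counts in NSD1B WT and 36 and 41 in NSD1B KO, the lowest counts of the 10 genes in that genotype. Its level fell from 27.8 ± 1.51 to 5.55 ± 0.772 CPM (mean ± SD, n = 2), or 5.01-fold. On the log2 scale *Ctsd* changed by -2.33 (SE 0.21, adjusted p = 8.94e-14). Its 95% interval, 14.8% to 26.9% of the level in NSD1B WT, is wider in proportion than that of any other of the 10 genes. At this level large changes were common. Among the 3791 genes whose level was within 2-fold of that of *Ctsd*, 15.6% fell at least as much. The gene (ENSMUSG00000007891.16) maps to chr7:142375911-142388038 on the minus strand. It shares 808 of its 2351 exon bases with Gm49369 on the same strand, which had 0 counts in all 4 libraries. How the counting treated reads on the shared exons is not given in the sources used here, so the level of *Ctsd* is uncertain.

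*Ctsa*, the serine carboxypeptidase that also protects lysosomal sialidase and beta-galactosidase, fell to 65.6%. Its counts were 402 and 397 in NSD1B WT and 267 and 238 in NSD1B KO. These are 55.3 ± 1.38 and 36.2 ± 1.22 CPM (mean ± SD, n = 2), a change of -0.61 on the log2 scale (SE 0.12, adjusted p = 1.11e-05). The log2 fold change of *Ctsa* was -0.32 with the trend on exon length and GC content removed (adjusted p = 0.0150), still past the threshold. The gene (ENSMUSG00000017760.16) maps to chr2:164832873-164841032 on the plus strand. Its exons share 819 bp with *Neurl2* and *Pltp* on the other strand. *Pltp* had 409 and 424 counts in NSD1B WT and 272 and 234 in NSD1B KO, nearly the counts of *Ctsa* itself, and reads on the shared stretch could not be told apart if strand was not used.

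*Lgmn*, a cysteine protease outside the cathepsin family that cuts after asparagine and activates several cathepsins, fell to 62.8%. It had 746 and 767 counts in NSD1B WT and 510 and 407 in NSD1B KO. Its NSD1B KO libraries differed more than its NSD1B WT libraries, at 70.9 and 60.5 CPM against 104 and 105 CPM, and no library of one genotype reached the other. For *Lgmn* the test gave a log2 fold change of -0.67 (SE 0.10, adjusted p = 4.48e-08). The gene (ENSMUSG00000021190.14) maps to chr12:102394084-102439813 on the minus strand.

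The thiol reductase gene *Ifi30* fell most among the genes of high level. It had 2099 and 1959 counts in NSD1B WT and 590 and 557 in NSD1B KO. The mean level went from 281 ± 18.2 to 82.4 ± 0.568 CPM (SD, n = 2), or to 29.3%. On the log2 scale *Ifi30* changed by -1.77 (SE 0.09, adjusted p = 3.54e-23). Among the 1235 genes with a level within 2-fold of *Ifi30*, 2.02% fell at least as much. For each count of *Ctss* there were 0.144 and 0.127 counts of *Ifi30* in NSD1B WT and 0.0384 and 0.0410 in NSD1B KO. The gene (ENSMUSG00000031838.8) maps to chr8:70762774-70766663 on the minus strand. GENCODE M21 lists it as a processed transcript with no coding sequence. It shares 85 bp of exon with 6330537M06Rik on the other strand, which had 238 and 191 counts in NSD1B WT and 56 and 36 in NSD1B KO.

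The inhibitor *Cst3* did not pass the threshold. It had 5939 and 5954 counts in NSD1B WT and 5846 and 5385 in NSD1B KO, or 823 ± 11.8 and 806 ± 8.46 CPM (mean ± SD, n = 2). For *Cst3* the test gave a log2 fold change of -0.03 (SE 0.08, adjusted p = 0.731), and its 95% interval covers 88.3% to 109% of the level in NSD1B WT. With the trend on exon length and GC content removed it turned to 0.23 (adjusted p = 0.00503), a fold change below 1.2. There were 4.79 and 4.60 counts of *Cst3* for each count of *Ctsb* in NSD1B WT and 7.71 and 8.07 in NSD1B KO. *Cst3* (ENSMUSG00000027447.6) maps to chr2:148871722-148875692 on the minus strand.

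*Lamp1*, a heavily glycosylated protein of the lysosomal membrane, fell to 62.5%. It had 499 and 448 counts in NSD1B WT and 282 and 288 in NSD1B KO, or 65.6 ± 6.04 and 41.0 ± 2.56 CPM (mean ± SD, n = 2). On the log2 scale *Lamp1* changed by -0.68 (SE 0.12, adjusted p = 7.31e-07). Its relative *Lamp2*, named here after its values were seen, went the other way, with 776 and 732 counts in NSD1B WT and 1632 and 1319 in NSD1B KO. The log2 fold change of *Lamp2* was 1.02 (SE 0.09, adjusted p = 2.18e-14). For each count of *Lamp2* there were 0.643 and 0.612 counts of *Lamp1* in NSD1B WT and 0.173 and 0.218 in NSD1B KO. *Lamp1* (ENSMUSG00000031447.7) maps to chr8:13159161-13175338 on the plus strand and shares 249 bp of exon with *Grtp1* on the other strand, which did not pass the threshold (log2 fold change 0.07, adjusted p = 0.728).

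Levels of different genes were compared as CPM per kb of merged exon. Merged exons exceed the principal transcript unevenly, at 4499 bp against 1617 nt for *Ctsh* and 2323 bp against 1990 nt for *Lgmn*. The order of genes that lie close thus depends on the length used, which the SD does not cover. In NSD1B WT the order was *Ctss* at 1530, *Cst3* at 650, *Ifi30* at 286, *Ctsz* at 253, *Ctsh* at 56.2, *Lgmn* at 45.1, *Ctsb* at 29.0, *Lamp1* at 24.5, *Ctsd* at 11.8 and *Ctsa* at 11.7 CPM per kb. On this scale *Ctsd* and *Ctsa* did not differ there beyond their spread (SD 0.642 and 0.293). In NSD1B KO *Ctss* and *Cst3* stayed first, at 1530 and 637 CPM per kb. *Ifi30*, at 84.0 CPM per kb, now lay below *Ctsz*, at 198. *Lgmn* and *Ctsh*, at 28.3 and 28.2 CPM per kb of merged exon, did not differ beyond their spread on this scale (SD 3.16 and 1.64). *Ctsb* and *Lamp1* lay at 16.9 and 15.3 CPM per kb (SD 0.724 and 0.957). *Ctsd*, at 2.36 CPM per kb, lay below *Ctsa*, at 7.69. Since *Ctss* and *Cst3* made up most of the 10 genes, their sum went from 4227 CPM in both NSD1B WT libraries to 3709 and 3550 CPM in NSD1B KO. Without *Ctss* and *Cst3* the sum went from 1352 and 1302 CPM to 762 and 728 CPM, or to 56.1%.

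Other genes of the lysosome stood on both sides. In 7 further lists with 100 genes, 81 were tested, of which 37 were lower, 23 higher and 21 not past the threshold. The shares, 45.7% lower and 28.4% higher, lie near the 41.1% and 37.1% of all genes tested, and the median log2 fold change was -0.23. No count was found in any library for 14 of the 100 genes.

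The hydrolases and their activators, the longest list, held the most lower genes by count, 17 of 31 tested against 6 higher (median log2 fold change -0.45). By share, their 54.8% lay below the 66.7% of the 3 tested other inhibitors and below the 1 tested MiT/TFE factor, which was lower. *Gusb*, the beta-glucuronidase gene, fell most among genes at or above a mean log2 CPM of 4, from 493 and 497 counts to 91 and 68 (log2 fold change -2.58, SE 0.15, adjusted p = 4.31e-21). *Aga*, which encodes aspartylglucosaminidase, rose most at or above that level, from 227 and 266 counts to 1031 and 924 (log2 fold change 2.04, SE 0.10, adjusted p = 1.09e-22). Decreases and increases of similar size thus stood in 1 list. *Smpd1*, the acid sphingomyelinase gene, had 175 and 203 counts in NSD1B WT and 0 in NSD1B KO. It was at least 121-fold lower, taken against 3 counts over the pair of libraries. *Plbd2* and *Sgsh* were likewise at 0 in NSD1B KO, at least 67.1-fold and 62.3-fold lower. Such genes were common, at 11.3% of all genes tested for NSD1B KO and 7.63% for NSD1B WT. In the 7 further lists, 8 of the 81 tested genes were at 0 in NSD1B KO alone and 1 in NSD1B WT alone.

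Of 8 other cathepsins, 4 were tested, and 3 had no count in any library (*Ctsf*, *Ctsg* and *Ctsk*). *Ctsc*, whose product trims dipeptides from proteins, fell from 6939 and 6692 counts to 4287 and 3953 (log2 fold change -0.67, SE 0.08, adjusted p = 4.67e-11). *Ctsl*, named after its values were seen, was the 1 that rose, from 13 and 10 counts to 74 and 87 (log2 fold change 2.85, SE 0.35, adjusted p = 3.68e-10). *Ctse* and *Ctso* did not pass the threshold (log2 fold changes -0.12 and -0.04). Cathepsins were thus found on both sides and between. Of 5 other inhibitors, 3 were tested. *Serpina3g*, an inhibitor of cathepsins in lymphocytes, fell from 426 and 492 counts to 39 and 45 (log2 fold change -3.39, SE 0.17, adjusted p = 4.41e-23). *Serpinb6a* rose from 50 and 56 counts to 287 and 192 (log2 fold change 2.22, SE 0.20, adjusted p = 3.15e-14). *Cstb*, an intracellular cystatin, fell at a log2 fold change of -0.47.

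Of 14 tested membrane proteins of the lysosome, 5 were higher and 5 lower. *Npc1*, which exports cholesterol, rose at a log2 fold change of 1.72, and *Laptm4a* fell at -1.02. *Cln3* had 0 counts in NSD1B WT and 205 and 195 in NSD1B KO, at least 138-fold higher, whereas *Mfsd8* and the sialic acid transporter *Slc17a5* were at 0 in NSD1B KO, at least 55.2-fold and 29.9-fold lower. The vacuolar ATPase, the pump that acidifies lysosomes, had 7 lower and 5 higher of 16 tested subunits and accessory proteins. *Atp6v0b* fell at a log2 fold change of -0.93 and *Atp6v1e1* rose at 1.43. Of 12 tested genes that sort enzymes to lysosomes, 5 were higher and 4 lower. *Vps35* of the retromer fell at a log2 fold change of -1.46, *Ap1g1* of the AP-1 adaptor rose at 0.59, and *Gga1* was at least 28.6-fold lower, with 0 counts in NSD1B KO. Higher and lower genes were mixed in each of these lists.

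Of 4 MiT/TFE factors, which drive transcription of lysosomal genes from E-boxes, only *Tfeb* could be tested. It had 43 and 39 counts in NSD1B WT and 0 and 0 in NSD1B KO, at least 26.3-fold lower. Over all genes tested, 11.3% had 0 counts in both NSD1B KO libraries and 7.63% in both NSD1B WT libraries. *Tfe3* had 10 and 7 counts in NSD1B WT and 0 in NSD1B KO, and *Mitf* and *Tfec* had no count. No relation between *Tfeb* and the genes above was tested.

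**Figure D4:**
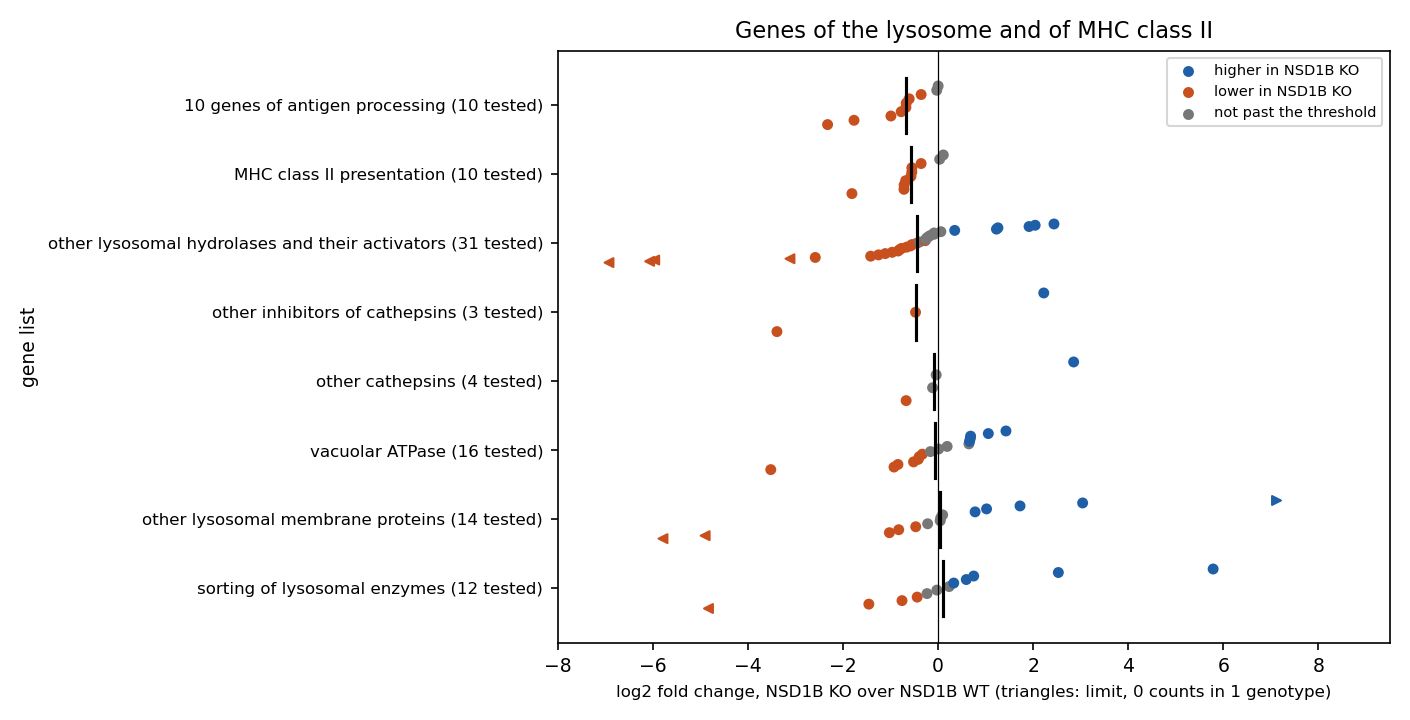
Log2 fold change of NSD1B KO over NSD1B WT for each tested gene of 8 lists (points, or triangles for the limit of genes with 0 counts in 1 genotype), with the median of a list as a black bar. The medians of the 10 genes (-0.67) and of MHC class II presentation (-0.56) lie to the left of 0, as do those of the other inhibitors (-0.47) and hydrolases (-0.45), and those of the other cathepsins and the vacuolar ATPase (both -0.08) lie near 0.

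Of the genes of MHC class II presentation, 8 of 10 were lower and 0 higher (median log2 fold change -0.56). Of all genes tested, 41.1% were lower and 37.1% higher. *H2-Oa*, a chain of the H2-O inhibitor of peptide loading, fell most, from 1494 and 1297 counts to 407 and 359 (log2 fold change -1.81, SE 0.10, adjusted p = 6.71e-22). *Cd74* had 268872 and 275866 counts in NSD1B WT and 210479 and 198833 in NSD1B KO (log2 fold change -0.36, SE 0.08, adjusted p = 4.78e-05). With the trend on exon length and GC content removed the call of *Cd74* was lost, at -0.07 (adjusted p = 0.445). Counts of *Ctss* for each count of *Cd74* were 0.0543 and 0.0559 in NSD1B WT and 0.0730 and 0.0684 in NSD1B KO.

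Cathepsins are abundant in macrophages and dendritic cells as well, so markers of other cells were examined beside these values. Each count of markers stands beside the 41.1% lower and 37.1% higher of all genes tested. By the methods of the study, sorted cells were used at a purity above 98%. Of 12 markers of macrophages and monocytes, 10 were tested, with 6 higher and 3 lower. Their summed level was 4943 and 5001 CPM in NSD1B WT and 6510 and 6126 CPM in NSD1B KO. *Lyz2*, the lysozyme gene of macrophages, gave most of it, with 31771 and 33166 counts in NSD1B WT and 42393 and 37280 in NSD1B KO. Without *Lyz2* the sum was 497 and 465 CPM in NSD1B WT and 618 and 584 CPM in NSD1B KO. Single markers went both ways. *Csf1r* (log2 fold change 3.88), *Cd14* (3.54) and *Cd68* (1.09) rose, whereas *C1qa* (-0.78) and *Ccr2* (-2.23) fell, and *Marco* went from 58 and 46 counts to 0. Of 10 markers of dendritic cells, 3 were tested, with 1 higher and 1 lower. *Xcr1* went from 0 counts to 36 and 26, and *Clec10a* from 55 and 44 counts to 0. No count was found in any library for 6 of the 10 (*Itgax*, *Flt3*, *Zbtb46*, *Clec9a*, *Siglech* and *Klk1*). The list summed to 35.0 and 31.9 CPM in NSD1B WT and 29.7 and 22.3 CPM in NSD1B KO. Markers of B cells were lower in 8 of 10 and higher in 0, at 13553 and 13357 CPM in NSD1B WT and 12705 and 11675 CPM in NSD1B KO. *Cd79b* made up much of this sum and did not pass the threshold (log2 fold change 0.26, just under a fold change of 1.2). The other 9 summed to 6682 and 6579 CPM in NSD1B WT and 4169 and 3893 CPM in NSD1B KO, or 60.8%. *Cd79b* was also the 1 marker with both NSD1B KO libraries above both NSD1B WT libraries, so leaving it out lowers this share. Among the 9 markers, *Cd79a*, a chain of the B cell receptor complex, fell at a log2 fold change of -1.33. The transcription factor *Pax5* fell at -3.29 and the complement receptor *Cr2* at -3.69.

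Summed erythroid markers differed most, from 40.3 and 36.8 CPM to 1948 and 1695 CPM, with 6 of 6 tested genes higher. T cell markers (4 of 8 tested, 2 higher and 2 lower) went from 37.5 and 34.9 CPM to 52.4 and 50.4 CPM, led by *Cd3g*, with *Cd4* and *Cd8a* at 0. NK cell markers (3 of 6 tested, 2 higher and 1 lower) went from 55.8 and 59.6 CPM to 92.0 and 92.9 CPM, led by *Nkg7*, with *Ncr1*, *Gzma* and *Klre1* at 0. Neutrophil markers (2 of 8 tested, 1 higher and 1 lower) summed to 1.81 to 5.46 CPM, with 6 at 0, among them *Ly6g* and *Mpo*. Plasma cell markers (4 of 6 tested, 2 higher and 2 lower) went from 273 and 267 CPM to 231 and 230 CPM, led by *Jchain*, with *Sdc1* and *Tnfrsf17* at 0. The part of these cells in the lower levels of the 8 genes was not tested.

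**Figure D5:**
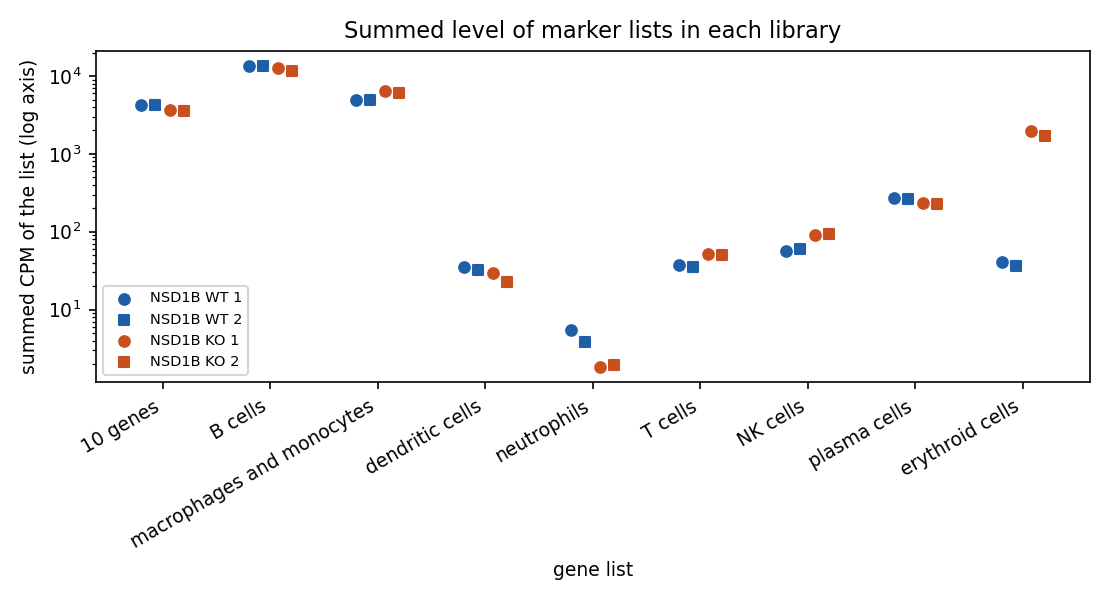
Summed CPM (log axis) of the 10 genes and of 8 lists of cell type markers in each library. The macrophage list is higher in NSD1B KO and the erythroid list lies at 36.8 to 40.3 CPM in NSD1B WT and at 1695 to 1948 CPM in NSD1B KO.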

How the data were processed

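RNA-seq of B220+ B cells from the spleen was analysed in 4 libraries, 2 per genotype, grouped by the genotype in their labels. Reads were paired-end, 150 bp long, and were mapped to mm10 with Bowtie2. The deposited values are raw read counts, 1 per gene, neither normalized nor scaled by length by the authors. Which program counted the reads, with which annotation release and whether by strand, is not given in the sources used here. Lines that name no gene, among them reads on no gene (44.3% to 44.6% of a library), stayed out of the library sizes.

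Counts were filtered by filterByExpr (minimum count 10, minimum total 15), scaled by TMM and tested with the quasi-likelihood test of edgeR 4.0.16 in R 4.3.3, NSD1B KO against NSD1B WT, with Benjamini-Hochberg adjustment over all 11657 genes tested. CPM are counts relative to the TMM-scaled library size, and SDs are over 2 libraries. Where 1 genotype had no count of a gene, its fold change was bounded with 3 counts over the pair, which covers counting error only. Positions, merged exon lengths and GC content come from GENCODE M21, which held 99.5% of the gene identifiers, and promoter windows from RefSeq on GRCm38.p6.

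Alternatives were the size factors and the Wald test of DESeq2 1.42.0, library size alone, upper quartile scaling, limma-voom (limma 3.58.1), a filter of 1 count in any library, a filter of 1 CPM in all 4 libraries, each library left out, the replicate number as a block, a loess trend on exon length and GC content removed (span 0.5) with and without the block, and stricter thresholds.

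The fit was first checked by simulation. The 10 genes and the gene lists were chosen with earlier results of these data known. In the other lists the largest increase and decrease past the threshold were named, if their mean log2 CPM was 4 or more and the genotypes did not overlap, and genes at 0 in 1 genotype with at least 50 counts in the other. *Lamp2*, *Ctsl*, *Cstb*, *Ctse*, *Ctso*, *Tfe3*, *Mitf*, *Tfec* and the markers of cell types were named after their values were seen.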

Additional observations from a re-analysis of the deposited data

How the results depend on the processing

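The count of 8 lower and 0 higher genes among the 10 held under each scaling, filter and test tried, under the replicate block and with each library left out (8 to 8 lower, 0 to 0 higher). It was 7 with the trend on exon length and GC content removed, with or without the block, and 6 at the stricter threshold (1e-05 and 0.5), where *Ctsz* and *Ctsa* were lost. The log2 fold change of *Ctsz* was -0.0189 with that trend removed and -0.0190 with the trend removed and the replicate block. The replicate block alone left -0.36 for *Ctsz* and changed no call of the 10 genes. At the threshold of the report, no other of the 10 genes changed its side under any setting fitted.

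The median log2 fold change of the 10 genes was -0.75 with library size alone, -0.71 with upper quartile scaling, -0.71 with the filter of 1 CPM in all 4 libraries and -0.66 with the trend removed, and it ran from -0.72 to -0.60 with each library left out. The median of all genes tested moved by less than 0.1 under each scaling, so changes are given without a correction for it. With the replicate number as a block the median of the 10 genes was -0.68, and over all genes 4254 were higher and 4706 lower, against 4324 and 4795 without the block. Same-numbered libraries did not deviate together (correlation of the deviations 0.0645), so the numbers were not taken as pairs. Of the other lysosomal genes, 33 to 37 were lower and 21 to 23 higher with each library left out.

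With 2 libraries per genotype the spread of a single gene is poorly known, and edgeR's estimate leans on all genes. Genes near 10 counts, such as *Ctsl* in NSD1B WT, have wide intervals. Lower limits of fold changes cover counting error only. Why the trend on exon length and GC content moves *Ctsz*, *Ctsa* and *Cst3* was not tested. Counts per gene cannot tell isoforms apart, and how reads on shared exons were assigned bears most on *Ctsd*, *Ctsa* and *Ctsb*.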

Other observations

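The change of *Ifi30* was shared by 6330537M06Rik, the overlapping gene on the other strand, which changed by -2.17 on the log2 scale (SE 0.21, adjusted p = 4.77e-13, edgeR). Of the 981 exon bases of *Ifi30*, 85 are shared, and without the strand setting only reads on these cannot be told apart. *Pltp*, which encodes a phospholipid transfer protein and overlaps *Ctsa*, fell at -0.67 (SE 0.12, adjusted p = 1.94e-06), close to the -0.61 of *Ctsa*.

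Over the 4 libraries, the genes with log2 CPM closest to *Ctsd* (Euclidean distance) were *Tmem248*, *Bzw2* and *Eya3*, at distances of 0.183, 0.289 and 0.307. *Tmem248* had 203 and 189 counts in NSD1B WT and 36 and 40 in NSD1B KO.

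In the other lysosomal lists, CACGTG stood in a promoter window of 19 of 64 tested genes with a window (29.7%, against 12.4% of all such tested genes). Of these 19, 6 were lower and 6 higher in NSD1B KO, and of the 45 without the letters 26 were lower and 10 higher. The arrangement seen among the 8 genes with windows, where the 5 with the letters fell, was not seen in the wider lists.

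Among genes with a level within 2-fold of each of the 8 genes that fell, between 27.3% and 42.7% were lower. For *Cst3* 41.2% of 308 such genes were not past the threshold, and for *Ctss* 35.5% of 76.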
